A study of Mus musculus with 4 samples.

Results

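The secreted ligands of the Wnt, fibroblast growth factor (Fgf), bone morphogenetic protein (Bmp), Hedgehog and transforming growth factor beta (Tgfb) pathways were examined for RNA polymerase II (Pol II) in 4 mouse organs. The genes were taken by symbol: Wnt, Fgf or Bmp followed by a number, the 3 Hedgehog genes Shh, Ihh and Dhh, Tgfb1 to Tgfb3, and the R-spondin genes Rspo1 to Rspo4. They came to 61 of the 21887 protein-coding genes annotated on autosomes and sex chromosomes, namely 19 Wnt, 4 R-spondin, 22 Fgf, 10 Bmp, 3 Hedgehog and 3 Tgfb genes. Bmp1, a protease, was left out by the rule, and Bmp2k, a kinase whose symbol the letters also matched, was set apart because it encodes no ligand. Fgf11 to Fgf14 encode proteins that stay inside the cell and were kept because the rule goes by symbol.

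The organs were lung, liver, kidney and heart of C57BL/6 mice, with no allele or treatment stated, and Pol II was read by chromatin immunoprecipitation and sequencing with 4H8, an antibody to the polymerase's C-terminal domain. Organs of 2 mice were frozen and sheared together, and neither their age and sex nor whether a list pools both is given in the labels. Each organ had 1 list of called regions, so n = 1, no value has a replicate error, no difference was tested, and organ and library cannot be told apart. The lists rested on 9880184 tags in the heart, 16589890.5 in the kidney, 20058183 in the liver and 13296938 in the lung, and held 61956 (liver) to 101051 (lung) regions. The lowest tag count of a listed region was 5.23 to 6.07 per 10000000 tags, so absence from a list means that no region passed at this depth and does not show that polymerase was absent. In whole organs, fewer cells of a type and less polymerase per cell cannot be told apart.

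Wnt proteins are lipid-modified and act over short distances through Frizzled receptors and Lrp5 or Lrp6, and R-spondins strengthen that signal through Lgr receptors. Most Fgf proteins act locally on receptor tyrosine kinases, whereas Fgf15, Fgf21 and Fgf23 circulate as hormones and need a Klotho co-receptor. Bmp and Tgfb proteins bind pairs of receptor kinases that act through Smad proteins, and Hedgehog proteins release Smo from its inhibition by Ptch1. The families are known for patterning the embryo, and in grown organs several are known as local signals that maintain stem cells and tissue balance.

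The organ labels were checked against markers of each organ. All 6 markers of each organ lay at least 50% inside called regions in that organ's own list. In the lists of other organs, 0 to 2 of 6 passed. Of the lung markers, Ager passed in each of the 3 other organs, at 26.2 tags per kb or more, and Sftpc passed in liver, at 74.7% and 23.7 tags per kb, against 22.9 in its own list. The kidney marker Cdh16 was covered in heart, at 65.9%, and the heart marker Nkx2-5 in liver, at 50.8%.

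A gene was called covered when at least 50% of its annotated span, introns included, lay inside regions of a list. Covered ligand genes numbered 4 in the heart, 6 in the kidney, 4 in the liver and 5 in the lung, or 6.56%, 9.84%, 6.56% and 8.20% of 61. Among all 21887 genes, 16.1%, 21.1%, 21.9% and 15.1% were covered in the same order of organs. The covered genes were Fgf1, Fgf11, Dhh and Tgfb1 in the heart, Fgf1, Fgf11, Fgf22, Bmp4, Ihh and Dhh in the kidney, Fgf1, Fgf11, Fgf21 and Fgf22 in the liver, and Fgf1, Fgf11, Bmp4, Dhh and Shh in the lung. No list covered the other 52 ligand genes (85.2%), against 66.9% of all genes covered in no list. No Wnt or R-spondin gene was among those covered. Several calls ended when only the 50% of regions with the highest score in each list were used. Covered percent was then 31.5% for Dhh and 46.9% for Tgfb1 in heart, 0 for Fgf22 in kidney, and 9.07% for Fgf1 and 0 for Fgf22 in liver. In lung it was 29.5% for Fgf1, 30.3% for Fgf11, 3.19% for Bmp4, 17.7% for Dhh and 0 for Shh, so no lung call was left. The calls of Fgf11 in heart, kidney and liver, of Fgf21 in liver, of Bmp4, Ihh, Dhh and Fgf1 in kidney and of Fgf1 in heart, at 50.0%, were kept. The share of all genes that kept their calls is not given here, so whether ligand genes lost more was not tested. The members nearest above the threshold were Fgf11 in lung, at 56.4%, and Dhh in heart, at 57.2%, and those nearest below it were Ihh in liver, at 43.3%, and Fgf9 in kidney, at 40.8%.

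A further measure asked whether a region overlapped, by at least 1 bp, the 1 kb either side of either gene end. It held for 15 ligand genes in the heart, 23 in the kidney, 11 in the liver and 19 in the lung, or 24.6%, 37.7%, 18.0% and 31.1%. The shares of all genes were 51.4%, 56.8%, 53.3% and 54.7%. Kidney had the most ligand genes with a region near an end and liver the fewest, although with a window of 2500 bp kidney and lung both had 28. Ligand genes with such a region in all 4 lists numbered 5 (8.20%), against 39.7% of all genes, and those with it in exactly 1 list numbered 15 (24.6%), against 9.26%. Between these, 9 had it in exactly 2 lists and 5 in exactly 3, against 8.60% and 10.3% of all genes, and 27 (44.3%) had it in no list, against 32.1%. Some region inside the span was found for 24, 28, 20 and 27 ligand genes in heart, kidney, liver and lung (39.3%, 45.9%, 32.8% and 44.3%), against 57.0%, 61.0%, 56.7% and 60.3% of all genes. The share of ligand genes with no region in the span or near an end in any list was close to that of all genes, at 16 of 61 (26.2%) against 27.0%. The median span was 22.3 kb over ligand genes and 17.2 kb over all genes.

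**Figure D1:**
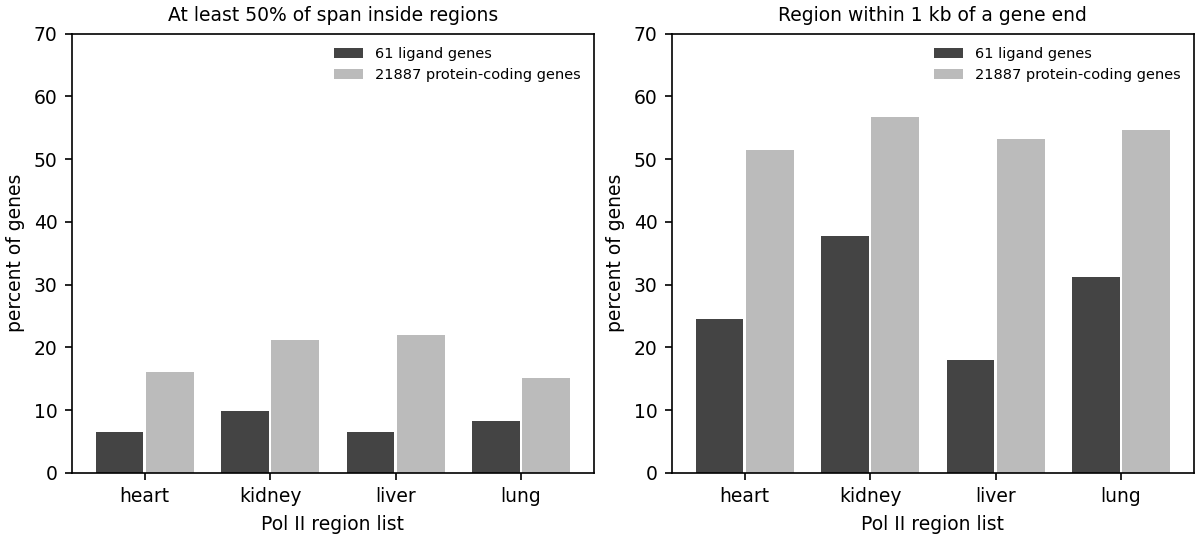
Bars give the percent of genes (vertical axes, from 0) in each Pol II region list (horizontal axes) for 61 ligand genes (dark) and all 21887 protein-coding genes (light), with at least 50% of the span covered (left) and with a region within 1 kb of a gene end (right). The ligand bars are the lower of each pair, at 6.56% to 9.84% against 15.1% to 21.9% on the left and 18.0% to 37.7% against 51.4% to 56.8% on the right.

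Levels were expressed as tags per kb of gene span, where each region's deposited tag count, per 10000000 tags, was shared out by the part of the region inside the gene. The median level over ligand genes was 0 in all 4 lists, because at most 28 of 61 had a region in their span in any list. Over all genes the median level was 0.48 in the heart, 0.91 in the kidney, 0.45 in the liver and 0.68 in the lung. The highest ligand level was 26.0 in the heart (Fgf1), 24.5 in the kidney (Bmp4), 27.9 in the liver (Fgf21) and 14.3 in the lung (Fgf1). Ranges in brackets after a level are 95% Poisson intervals on the tags so shared out and cover their counting error only. Where a region runs past a gene, the tags inside the gene were taken by length and not counted. The ranges leave out the error of that step. Tags outside called regions do not enter. The caller's Poisson tag threshold was 9 in the heart, 12 in the kidney, 14 in the liver and 11 in the lung. Intervals that lie apart are therefore no test between organs.

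**Figure D2:**
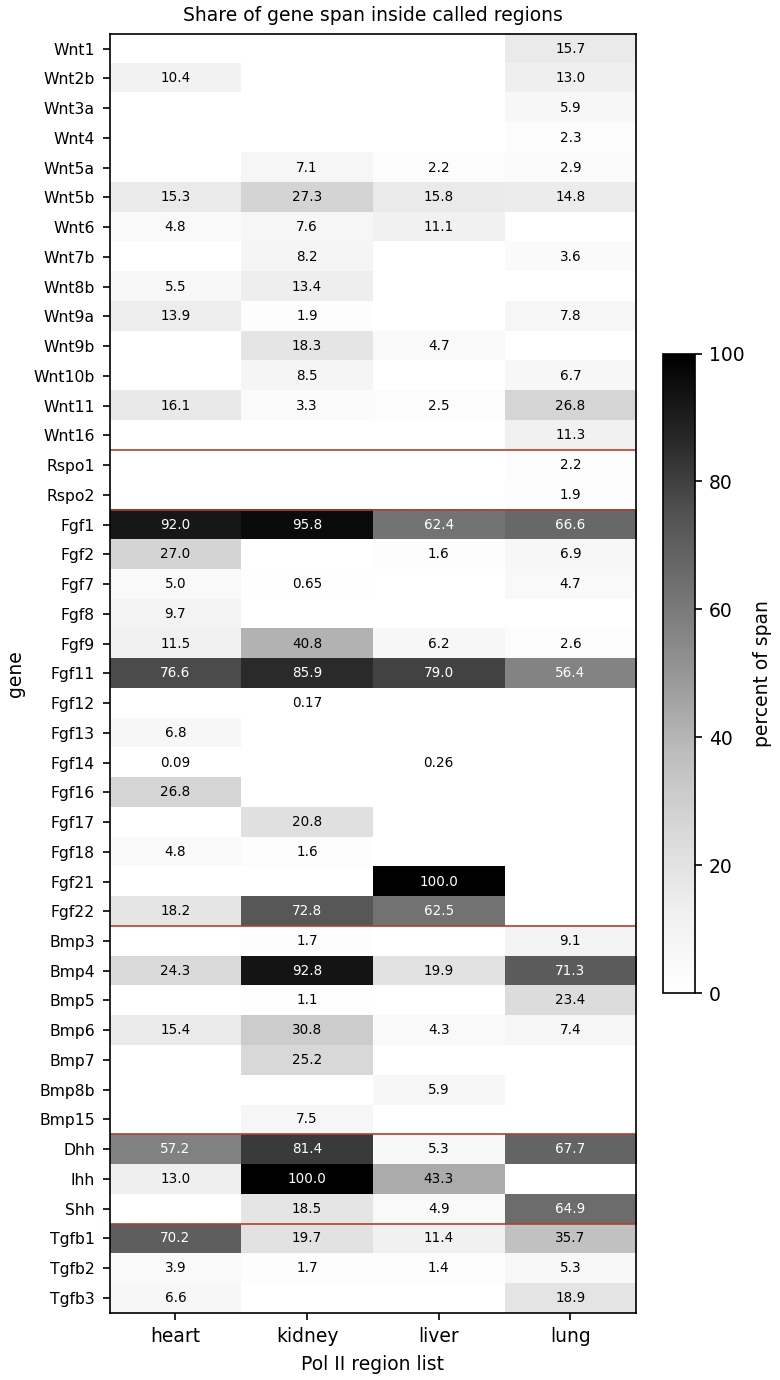
Each cell gives the percent of a gene's span (rows, ordered by family, families parted by lines) inside called regions of a Pol II list (columns), for the 43 ligand genes with a region in their span in at least 1 list; empty cells are 0. Dark cells stand at Fgf1, Fgf11, Fgf21, Fgf22, Bmp4, the Hedgehog genes and Tgfb1, whereas no Wnt cell is above 27.3%.

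Wnt genes were covered at 27.3% or less and had levels of 5.54 tags per kb or less in any list. Those with a region near an end numbered 5 in the heart, 9 in the kidney, 3 in the liver and 5 in the lung of 19. Wnt5b, which acts mainly outside the beta-catenin branch, had a region near an end in all 4 lists. In each list that region lay wholly outside the gene, past its downstream end. Each list also had a region within 1 kb of an annotated start inside the span. The Wnt5b span of 112 kb on chromosome 6 (119432531 to 119544824) was covered at 15.3% in the heart, 27.3% in the kidney, 15.8% in the liver and 14.8% in the lung, with levels of 3.38, 5.54, 3.09 and 2.89 tags per kb. That span holds the whole of Fbxl14, a gene of a ubiquitin ligase subunit, which was itself covered at 67.5% to 85.2% in the 4 lists, so part of the Wnt5b signal lay in another gene. Outside the genes it overlaps, the Wnt5b span was covered at 13.7%, 27.1%, 14.7% and 12.8% in the same order.

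Wnt11, known for branching of the ureteric bud and for heart development, was covered at 16.1% in the heart, 3.3% in the kidney, 2.5% in the liver and 26.8% in the lung. Its level was 3.45 tags per kb in the heart (2.67 to 4.38), 0.57 in the kidney, 0.39 in the liver and 4.31 in the lung (3.55 to 5.18), so heart and lung overlapped in their counting intervals and both stood above kidney and liver. In heart a single region of 3163 bp began 175 bp downstream of its start. Wnt9b, made by the ureteric bud and collecting duct, was covered at 18.3% in kidney, with 5 regions and 4.05 tags per kb, against 4.65% in liver and no region in heart and lung. Wnt9a and Wnt2b had their highest covered percents in heart and lung, with 13.9% and 10.4% in heart and 7.77% and 13.0% in lung. Wnt9a had 1.87% in kidney and none in liver, and Wnt2b had no region in either. Wnt7b, of the collecting duct and the airway epithelium, was covered at 8.22% in kidney and 3.63% in lung and had no region in heart and liver. Wnt5a, Wnt6, Wnt8b and Wnt10b had regions in 2 or 3 lists each, and the highest covered percent among them was 13.4% (Wnt8b in kidney).

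Regions inside the span were confined to the lung list for Wnt1, Wnt3a, Wnt4 and Wnt16, with 1 to 4 regions each and covered percents of 2.29% to 15.7%. The same held for the R-spondin genes Rspo1 and Rspo2, at 0.36 and 0.35 tags per kb. Rspo3 and Rspo4 had no region in any list, and the nearest region to Rspo3 was about as far in each list, at 90.1 kb in the heart, 89.8 kb in the kidney, 89.9 kb in the liver and 90.7 kb in the lung. Wnt2, Wnt3, Wnt7a and Wnt8a also had no region in the span or near an end in any list. Wnt2, known from lung mesenchyme and endothelium, lay 38.8 kb from the nearest lung region and 145 kb to 236 kb from those of the other organs. Wnt10a had no region in its span and a region near an end in kidney only.

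Among the Fgf genes that act locally, Fgf1 had the highest levels. The gene, which lacks a secretion signal and whose product binds every Fgf receptor, spans chromosome 18 from 38838672 to 38929470. It was covered at 92.0% in the heart, 95.8% in the kidney, 62.4% in the liver and 66.6% in the lung, at 26.0, 21.7, 21.7 and 14.3 tags per kb. The lung level (13.6 to 15.0) lay below the intervals of the other organs, and the kidney and liver intervals overlapped. All of the span also lies inside other annotated genes, Arhgap26 and Gm5820, so no part of it could be read as Fgf1 alone. Arhgap26 as a whole was covered at 60.6%, 28.0%, 22.7% and 24.3% in heart, kidney, liver and lung.

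Fgf2, a relative of Fgf1 that also lacks a secretion signal, had 12 regions in the heart, none in the kidney, 2 in the liver and 6 in the lung. Its covered percent was 27.0% in the heart, 0 in the kidney, 1.62% in the liver and 6.88% in the lung, and its level 6.19 tags per kb in heart (5.58 to 6.85), 0.23 in liver and 1.39 in lung (1.14 to 1.67). The longest heart region, 5288 bp, lay inside the gene, 29775 bp from the start, and the last 2 heart regions also touched Nudt6, which overlaps the gene. Fgf22, known from synapse formation, was covered at 18.2% in the heart, 72.8% in the kidney, 62.5% in the liver and 0 in the lung, at 4.04, 9.68, 8.84 and 0 tags per kb. Its span is 2.75 kb long, and a single region of 2722 bp in kidney, which also reached Rnf126, and of 2382 bp in liver made up these values. Fgf9, known from lung and kidney development, was covered at 40.8% in kidney, with 8 regions, against 11.5% in heart, 6.22% in liver and 2.61% in lung. Its first kidney region, 13.3 kb long, ran over the start.

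Fgf16, a factor known from the heart of mice, had 3 regions in its span and 1 near an end in heart and none in the other lists. They covered 26.8% of the span at 5.33 tags per kb (4.10 to 6.82). Fgf8 had a single region in its span, in heart, and a region near an end in lung, and Fgf17 a single one, in kidney. Fgf7 had 3 regions in heart, 1 in kidney and 3 in lung and lies wholly inside Fam227b. Fgf18 had 2 regions in heart and 1 in kidney. No region lay in or near Fgf3, Fgf4, Fgf5, Fgf6, Fgf10 or Fgf20 in any list. Fgf10, which directs lung branching, lay far from its nearest region, at 541 kb in the heart, 55.3 kb in the kidney, 327 kb in the liver and 603 kb in the lung.

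The hormone Fgf21, secreted by the liver and raised by fasting, was covered in liver alone. Covered percent was 0 in the heart, 0 in the kidney, 100% in the liver and 0 in the lung, and the liver level was 27.9 tags per kb (22.4 to 34.3). The gene spans 1.60 kb on chromosome 7 (45613890 to 45615490), and the liver region over it ran from 45605709 to 45616799, holding 309.1 tags. That region overlapped no other protein-coding gene and reached 8181 bp past the downstream end of the gene and 1309 bp past its upstream end. Of its length, 14.4% lay inside the gene. The level is thus the mean over the whole region, and where in it the tags lay is not known. The hormones Fgf15 and Fgf23 had no region in the span or near an end in any list. Fgf15, which is made by the ileum, lay 6.70 kb from the nearest region in the heart, 9.85 kb in the kidney, 20.3 kb in the liver and 13.0 kb in the lung. Fgf23, which is made by bone, lay 2.75 kb from the nearest region in the heart, 69.5 kb in the kidney, 24.9 kb in the liver and 53.5 kb in the lung.

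Of the hormones' co-receptors, Klb, which Fgf21 and Fgf15 need, was covered at 1.30% in the heart, 3.64% in the kidney, 90.1% in the liver and 8.12% in the lung. Kl, which Fgf23 needs, was covered at 79.0% in kidney and had no region in its span in heart, liver and lung. In the liver list, then, the hormone Fgf21 and the co-receptor Klb were both covered, and in the kidney list the co-receptor Kl was covered without the hormone.

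The 250 bases before the annotated start of Fgf21, the ligand gene with the highest level in any list, are shown for the core promoter letters they hold (chr7:45615491-45615740, minus strand, GRCm38.p6, RefSeq). Capitals here and in the sequences further on mark TATAAA and GGGCGG on either strand, the latter reading CCGCCC on the other strand. The sequence held 1 TATAAA, whose first base stood 28 bases before the start, and 3 GGGCGG.
Fgf21: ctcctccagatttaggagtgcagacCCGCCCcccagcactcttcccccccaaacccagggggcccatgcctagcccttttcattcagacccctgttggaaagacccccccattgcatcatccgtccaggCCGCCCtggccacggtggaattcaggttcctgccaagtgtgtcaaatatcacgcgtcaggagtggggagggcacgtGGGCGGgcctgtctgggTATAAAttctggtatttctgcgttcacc

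Of the intracellular family members, Fgf11 was covered in all 4 lists, at 76.6% in the heart, 85.9% in the kidney, 79.0% in the liver and 56.4% in the lung. Its levels were 19.6, 21.0, 14.8 and 12.8 tags per kb. Without regions under 10 tags per 10000000, the lung value was 49.2%, below the threshold. The proteins of this group bind voltage-gated sodium channels. In each list regions ran from Fgf11 into Chrnb1 on the downstream side and into Tmem102 on the upstream side, both within 1 kb. Both neighbours were covered in all 4 lists, Chrnb1 at 73.5% to 95.7% and Tmem102 at 69.7% to 100%.

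Fgf13, which modulates the cardiac sodium channel, had 43 regions in its 523 kb span in heart and 0 in kidney, liver and lung. They covered 6.81% of the span at 1.47 tags per kb (1.37 to 1.58). Its relatives with similarly long spans had few regions: Fgf12 had 2, in kidney, and Fgf14 had 1 in heart and 1 in liver. Bmp7, Bmp5, Fgf13 and Fgf16 are given in detail, beyond the members that coverage or level picked out, because of how unevenly their regions fell across the lists, a choice made after their values were seen.

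**Figure D3:**
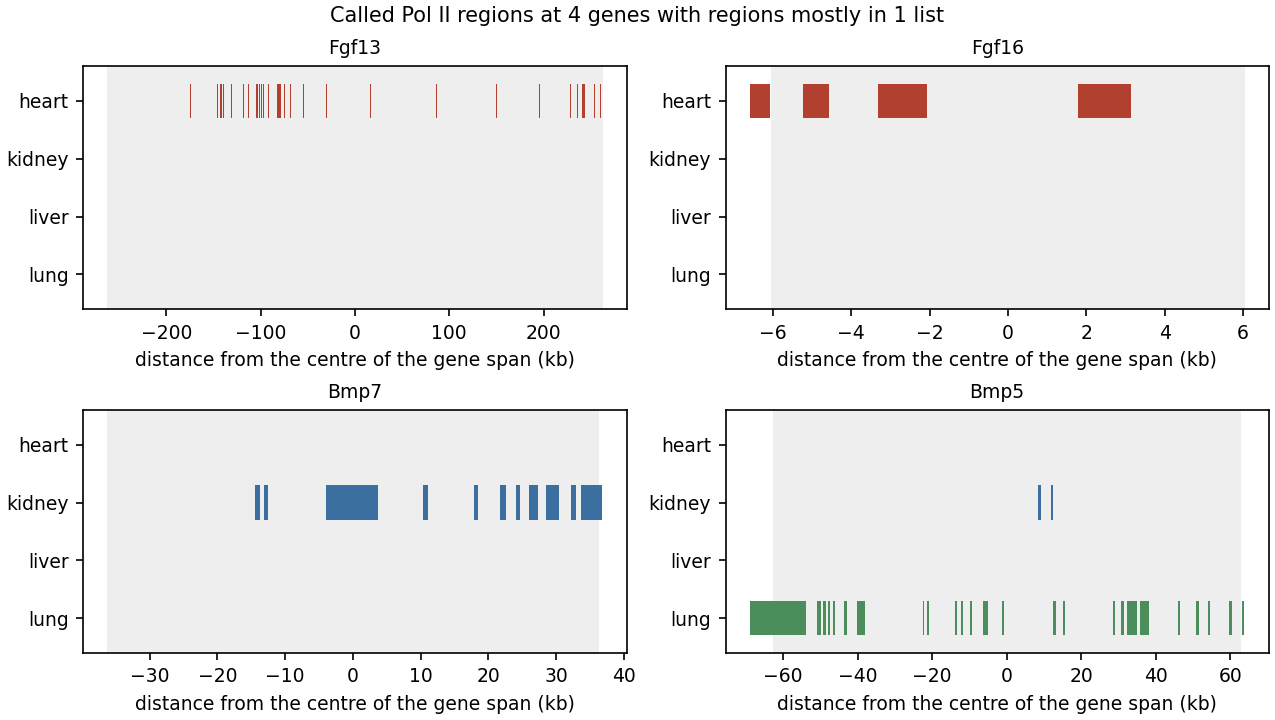
Horizontal bars are called Pol II regions in each list (rows) by distance in kb from the centre of the gene span (horizontal axis, grey band: the gene span) at Fgf13, Fgf16, Bmp7 and Bmp5. Regions lie in heart alone at Fgf13 and Fgf16, in kidney alone at Bmp7, and in lung, with 2 in kidney, at Bmp5.

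Bmp4, known from mesoderm, lung and kidney development, had the highest levels of the Bmp genes in every list. It was covered at 24.3% in the heart, 92.8% in the kidney, 19.9% in the liver and 71.3% in the lung, at 4.60 (3.16 to 6.48), 24.5 (21.8 to 27.5), 3.14 (2.29 to 4.20) and 13.9 (11.7 to 16.5) tags per kb. The intervals of kidney and lung lay apart from each other and above those of heart and liver, which overlapped. The gene spans 7.14 kb on chromosome 14 (46383525 to 46390669, minus strand). A single kidney region ran from 46379063 to 46390154, holding 292.9 tags, and its upstream edge lay 515 bp inside the gene. The lung list had 3 regions there, of 1434 bp over the downstream end, 4867 bp within the gene and 652 bp ahead of the start. In heart and liver the regions, of 500 bp to 1419 bp, lay inside the gene more than 1 kb from the start.

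The 250 bases before the Bmp4 start are shown because no region lay over them in any list, although kidney and lung covered most of the gene (chr14:46390670-46390919, minus strand, GRCm38.p6, RefSeq). They held 1 GGGCGG and no TATAAA.
Bmp4: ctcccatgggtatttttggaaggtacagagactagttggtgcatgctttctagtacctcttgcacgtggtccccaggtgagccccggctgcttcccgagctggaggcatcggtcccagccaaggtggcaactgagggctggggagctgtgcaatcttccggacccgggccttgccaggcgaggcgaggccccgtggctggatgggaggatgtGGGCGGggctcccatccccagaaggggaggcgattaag

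Bmp7, required for nephron formation, had 11 regions in kidney and 0 in heart, liver and lung. They covered 25.2% of its 72.3 kb at 4.77 tags per kb (4.39 to 5.18), the longest being 7713 bp, and a region of 3064 bp ran over 1 end of the gene. Bmp5 had 24 regions in lung, which covered 23.4% of 125 kb at 4.29 tags per kb (3.98 to 4.62), against 2 regions and 1.13% in kidney and none in heart and liver. Its first lung region, from 75769019 to 75783917 on chromosome 9, was 14.9 kb long, held 295.6 tags and covered the start.

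Bmp6, which sets iron balance through hepcidin, was covered at 15.4% in the heart, 30.8% in the kidney, 4.33% in the liver and 7.45% in the lung, with 14, 27, 3 and 13 regions. Bmp3 had 1 region in kidney and 3 in lung, Bmp8b 2 in liver and Bmp15 1 in kidney. Bmp8a had no region in its span and a region near an end in kidney and lung. Bmp2 and Bmp10 had no region in the span or near an end in any list. The nearest liver region to Bmp2 lay 1.29 kb away, and the nearest heart region to Bmp10, a factor of the atrium, lay 299 kb away.

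All 3 Hedgehog genes were covered in some list. Ihh, known from cartilage growth, was covered at 13.0% in the heart, 100% in the kidney, 43.3% in the liver and 0 in the lung, at 1.82 (0.93 to 3.23), 21.1 (18.4 to 24.0), 9.33 (7.73 to 11.2) and 0 tags per kb. The gene spans 6.36 kb on chromosome 1 (74945315 to 74951672, minus strand). In kidney a region of 10.5 kb, from 74943794 to 74954254, ran over the whole gene and past both ends, and in liver a region of 2755 bp ended 214 bp inside the start. None of these regions touched another gene.

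The 250 bases before the Ihh start, over which the kidney region ran, are shown (chr1:74951673-74951922, minus strand, GRCm38.p6, RefSeq). They held 2 GGGCGG and no TATAAA.
Ihh: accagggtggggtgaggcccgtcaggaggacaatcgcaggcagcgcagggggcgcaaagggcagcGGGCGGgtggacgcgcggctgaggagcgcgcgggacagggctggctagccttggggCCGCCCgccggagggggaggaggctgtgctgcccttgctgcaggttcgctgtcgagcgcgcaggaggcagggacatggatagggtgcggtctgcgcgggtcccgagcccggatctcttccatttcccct

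Shh, the Hedgehog protein of the airway epithelium, was covered at 0 in the heart, 18.5% in the kidney, 4.87% in the liver and 64.9% in the lung, at 0, 2.56 (1.85 to 3.44), 0.80 (0.46 to 1.29) and 11.7 (9.98 to 13.7) tags per kb. The lung interval lay above the others. A single lung region of 6656 bp, from 28458172 to 28464828 on chromosome 5, made up the lung value, with 120.3 tags, and was not among the 50% of lung regions with the highest score. It lay wholly inside the gene (28456840 to 28467101), and neither end had a region within 1 kb in any list.

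Dhh, known from Schwann and Sertoli cells, was covered at 57.2% in the heart, 81.4% in the kidney, 5.29% in the liver and 67.7% in the lung, at 12.0, 17.7, 0.89 and 12.9 tags per kb. Liver stood apart, with its interval of 0.60 to 1.27 below those of the other organs. A region over the downstream end was shared with Rhebl1 in all 4 lists and with Kmt2d in kidney, liver and lung, and it held 1.51% (liver) to 32.5% (heart) of its length inside Dhh. Regions wholly inside the gene were also present, the longest of them 4348 bp in heart, 6823 bp in kidney and 669 bp in liver. In lung a region of 13.0 kb ran over the start and touched no other gene.

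**Figure D4:**
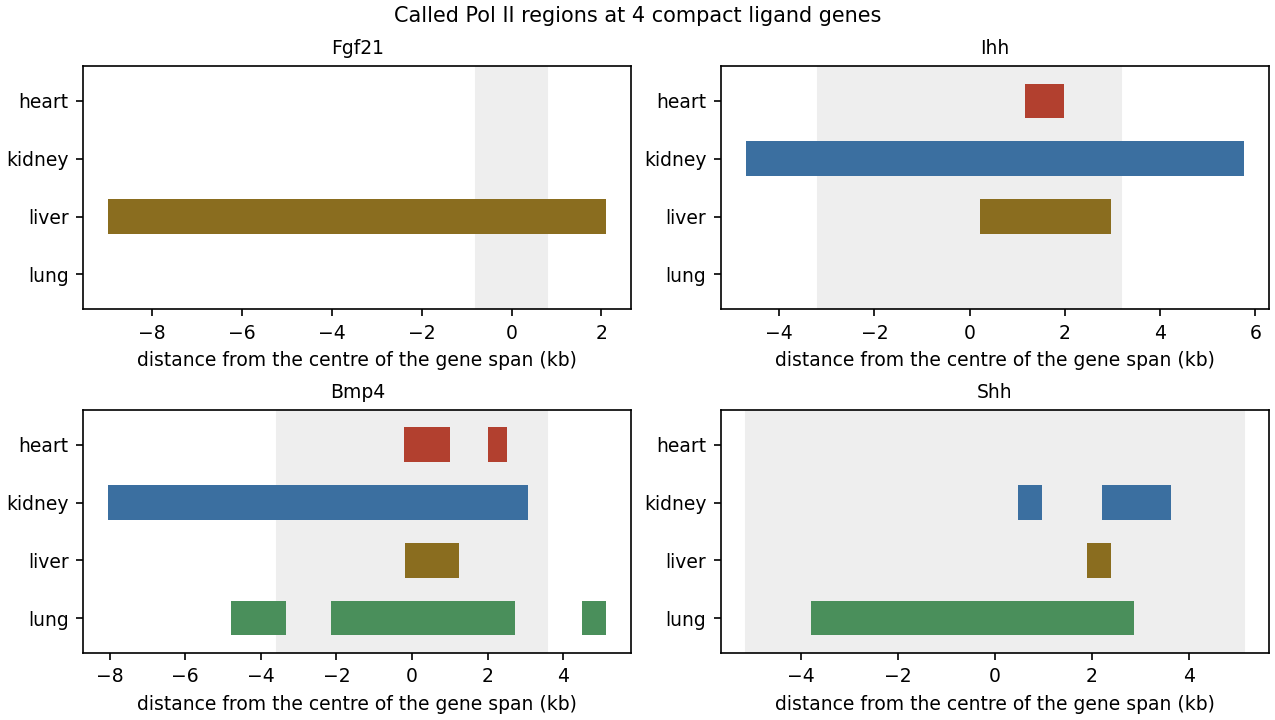
Horizontal bars are called Pol II regions in each list (rows) by distance in kb from the centre of the gene span (horizontal axis, grey band: the gene span) at Fgf21, Ihh, Bmp4 and Shh. The Fgf21 region is in liver alone, the Ihh gene is filled in kidney, Bmp4 has its longest region in kidney, and the Shh lung region lies inside the gene.

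Tgfb1, the widely made member of its family, had a region near an end in all 4 lists and was covered at 70.2% in the heart, 19.7% in the kidney, 11.4% in the liver and 35.7% in the lung. Its level was 19.7 tags per kb in the heart (17.7 to 21.8), 3.77 in the kidney (3.10 to 4.53), 1.71 in the liver (1.31 to 2.19) and 6.12 in the lung (5.17 to 7.19), and none of the 4 intervals overlapped. The gene spans 18.1 kb on chromosome 7 (25687002 to 25705077). In each list the region over its start also reached B9d2, and in heart a region of 13.6 kb over its downstream end also reached Ccdc97. Of the lengths of these 2 heart regions, 69.3% and 31.1% lay inside Tgfb1.

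The 250 bases before the Tgfb1 start, which lay under a region in every list, are shown for comparison with the other promoters (chr7:25686752-25687001, plus strand, GRCm38.p6, RefSeq). They held 5 GGGCGG and no TATAAA.
Tgfb1: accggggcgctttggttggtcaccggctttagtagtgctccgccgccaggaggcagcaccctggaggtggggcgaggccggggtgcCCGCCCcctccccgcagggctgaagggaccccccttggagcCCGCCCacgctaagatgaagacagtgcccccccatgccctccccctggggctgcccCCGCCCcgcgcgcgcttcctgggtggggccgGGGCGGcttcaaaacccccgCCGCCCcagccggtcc

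Marker sums of other cell types also differed between the lists. The endothelial markers Pecam1, Cdh5, Kdr and Tek summed to 98.3 tags per kb in the heart, 4.50 in the kidney, 7.65 in the liver and 49.4 in the lung, with 2, 0, 0 and 2 of 4 covered, Cdh5 at 0 in kidney and liver and Tek at 0 in liver. Eng and Acvrl1, receptors of endothelium outside this sum, were not low in kidney and liver. In heart, kidney, liver and lung, Eng had 47.9, 16.4, 21.6 and 18.7 tags per kb and Acvrl1 26.5, 18.3, 11.3 and 31.5. Fibroblast markers (Col1a1, Col1a2, Pdgfra and Dcn) summed to 18.2, 3.18, 1.27 and 4.18 tags per kb with none covered, with Col1a2 at 0 in kidney, liver and lung, Dcn at 0 in liver and lung and Col1a1 at 0 in liver. Leukocyte markers (Ptprc, Cd74, Lyz2 and Csf1r) summed to 10.1, 13.9, 1.59 and 37.0 tags per kb, with 2 of 4 covered in lung and none elsewhere, Lyz2 at 0 outside lung and Ptprc at 0 in heart and liver. The lung sum came mostly from Cd74 (19.2) and Lyz2 (15.95), with Ptprc at 0.81. Csf1r went the other way, at 4.65 in the heart, 9.03 in the kidney, 0.59 in the liver and 1.06 in the lung. Other ligand genes with their higher levels in heart and lung included Fgf2, Fgf7, Wnt2b, Wnt9a, Wnt11, Tgfb2 and Tgfb3. The part of these cell types in their values, and in those of Tgfb1, was not tested.

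Tgfb3 was covered at 6.61% in heart and 18.9% in lung and had no region in kidney and liver. Tgfb2 was covered at 3.91% in the heart, 1.73% in the kidney, 1.39% in the liver and 5.30% in the lung, with levels below 1 tag per kb in each list.

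Regions in the span in a single list were found for 3 ligand genes in the heart, 4 in the kidney, 2 in the liver and 6 in the lung. These made up 4.92%, 6.56%, 3.28% and 9.84% of ligand genes, against 1.94%, 2.17%, 2.11% and 2.33% of all genes. The heart genes were Fgf8, Fgf13 and Fgf16, the kidney genes Bmp7, Bmp15, Fgf12 and Fgf17, and the liver genes Fgf21 and Bmp8b. The lung genes were the Wnt and R-spondin genes named above, of which Wnt1 had the highest level, 2.45 tags per kb. Of the 15 genes, Fgf21 had 100% of its span covered and the others 0.17% to 26.8%.

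Several ligand genes are neighbours and are not independent of each other. Within 50 kb of one another lay Wnt6 and Wnt10a (6.70 kb apart), Wnt3a and Wnt9a (16.1 kb), Wnt10b and Wnt1 (11.7 kb), Fgf6 and Fgf23 (48.2 kb), Fgf3 and Fgf4 (18.0 kb), Fgf4 and Fgf15 (31.3 kb), and Wnt9b and Wnt3, whose ends overlap. No region of any list overlapped both genes of a pair. Of the neighbours, Wnt9b had regions in kidney and liver while Wnt3 had none, and Wnt9a had regions in heart, kidney and lung while Wnt3a had them in lung alone.

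Strand and promoter sequence were in the RefSeq table for 44 of the 61 genes, with 53 promoters of 300 bases (250 before the start and 50 after it). A region within 1 kb of such a start was present for 13 of the 44 in the heart, 17 in the kidney, 8 in the liver and 13 in the lung, against 49.7%, 54.8%, 51.4% and 52.3% of 17492 genes in the table. The ligand promoters held a median of 23 CG dinucleotides, and all 21263 promoters of the table held 13. GGGCGG, the letters of the Sp1 motif, occurred on either strand in 36 ligand promoters (67.9%) and in 46.2% of all promoters. TATAAA, of the TATA box, occurred in 6 (11.3%) and in 12.6% of all. CTTTGT, the core of Tcf and Lef sites, occurred in 7 (13.2%) and in 16.8% of all. CAGACA, which holds the letters of a Smad binding element, occurred in 10 (18.9%) and in 18.9% of all, and CACGTG, an E-box, in 7 (13.2%) and in 7.84% of all. Both strands were searched, each motif was counted on its own, so that matches of different motifs may share letters, and a match describes letters only.

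Receptors, inhibitors and targets of the same pathways, 102 genes in 8 lists, were called more often than the ligands, of which 4 to 6 were covered and 11 to 23 had a region near an end. Their shares lay nearer to those of all genes than the ligand shares did, and for a region near an end they lay above all genes in each list. Covered genes numbered 19 in the heart, 23 in the kidney, 20 in the liver and 21 in the lung (18.6%, 22.5%, 19.6% and 20.6%), against 16.1%, 21.1%, 21.9% and 15.1% of all genes. Those with a region near an end numbered 64, 71, 64 and 68 (62.7%, 69.6%, 62.7% and 66.7%), against 51.4%, 56.8%, 53.3% and 54.7%. The median level, 0 over the ligands in each list, was 1.55 tags per kb over these genes in the heart, 2.38 in the kidney, 1.62 in the liver and 2.36 in the lung. These differences between lists of genes were not tested.

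Of the 20 Wnt receptors and secretion genes, 2, 5, 6 and 4 were covered in heart, kidney, liver and lung, and 13 to 15 had a region near an end. The Frizzled receptor Fzd4 was covered at 100% in all 4 lists, at 21.6 to 45.1 tags per kb, and Fzd7 at 100% in kidney, liver and lung and 16.4% in heart. The R-spondin receptor Lgr4 was covered at 5.24% in the heart, 99.2% in the kidney, 91.0% in the liver and 1.04% in the lung, whereas its ligand genes Rspo1 and Rspo2 had regions in the lung list alone. Of the 20 Wnt inhibitors and targets, 1, 2, 4 and 2 were covered. They included Notum, which removes the lipid from Wnt proteins, at 58.7%, 94.4%, 100% and 57.3%. Rnf43 and Znrf3, which remove Frizzled from the surface, were covered at 75.5% and 50.3% in liver, 19.9% and 55.5% in kidney, 28.4% and 33.8% in lung, and 0 and 7.83% in heart.

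Among the 7 Fgf receptors and co-receptors, 0, 3, 3 and 2 were covered in the heart, kidney, liver and lung. Fgfr3 was covered at 88.6% in the kidney, 91.7% in the liver and 96.2% in the lung with no region in its span in the heart, and Fgfr4 at 59.1% in the kidney, 56.9% in the liver and 6.27% in the lung, again with none in heart. Of the 10 Fgf inhibitors and targets, 5, 4, 1 and 3 were covered. The phosphatase gene Dusp6, a target of Fgf signalling, was covered at 100% in all 4 lists. The feedback inhibitors Spry1 and Spry2 were covered at 86.5% to 100% in heart, kidney and lung, whereas liver had 3.89% and 0.

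Of the 8 Bmp receptors, 3, 2, 1 and 3 were covered and 7 had a region near an end in each list. Eng and Acvrl1, receptors of endothelium, were covered at 96.2% and 100% in the heart, 85.4% and 89.2% in the kidney, 81.3% and 40.5% in the liver, and 83.9% and 100% in the lung. Bmpr1a was covered at 79.6% in heart and 22.6% to 44.3% elsewhere. Of the 12 Bmp inhibitors and targets, 3, 4, 3 and 4 were covered, with the target genes Id1 and Id3 at 100% in all 4 lists and Id2 at 100% in kidney, liver and lung and 44.7% in heart.

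Of the 12 Hedgehog receptors, inhibitors and targets, 0, 1, 1 and 0 were covered. The gene was Gas1, a Hedgehog co-receptor, at 100% in kidney and liver, 45.4% in heart and 13.6% in lung. The receptor and target Ptch1 was covered at 17.3% in the heart, 46.7% in the kidney, 40.9% in the liver and 36.8% in the lung, and the target Gli1 at 11.8% to 25.7% across the lists. Of the 13 Tgfb receptors, binding proteins and targets, 5, 2, 1 and 3 were covered and 12, 9, 8 and 12 had a region near an end. The inhibitor and target Smad7 was covered at 97.6% to 100%. Smad3 was covered at 35.9% in the heart, 81.8% in the kidney, 27.1% in the liver and 54.6% in the lung. Tgfbr3, a co-receptor, was covered at 64.3% in the heart, 37.5% in the kidney, 9.24% in the liver and 24.1% in the lung.

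**Figure D5:**
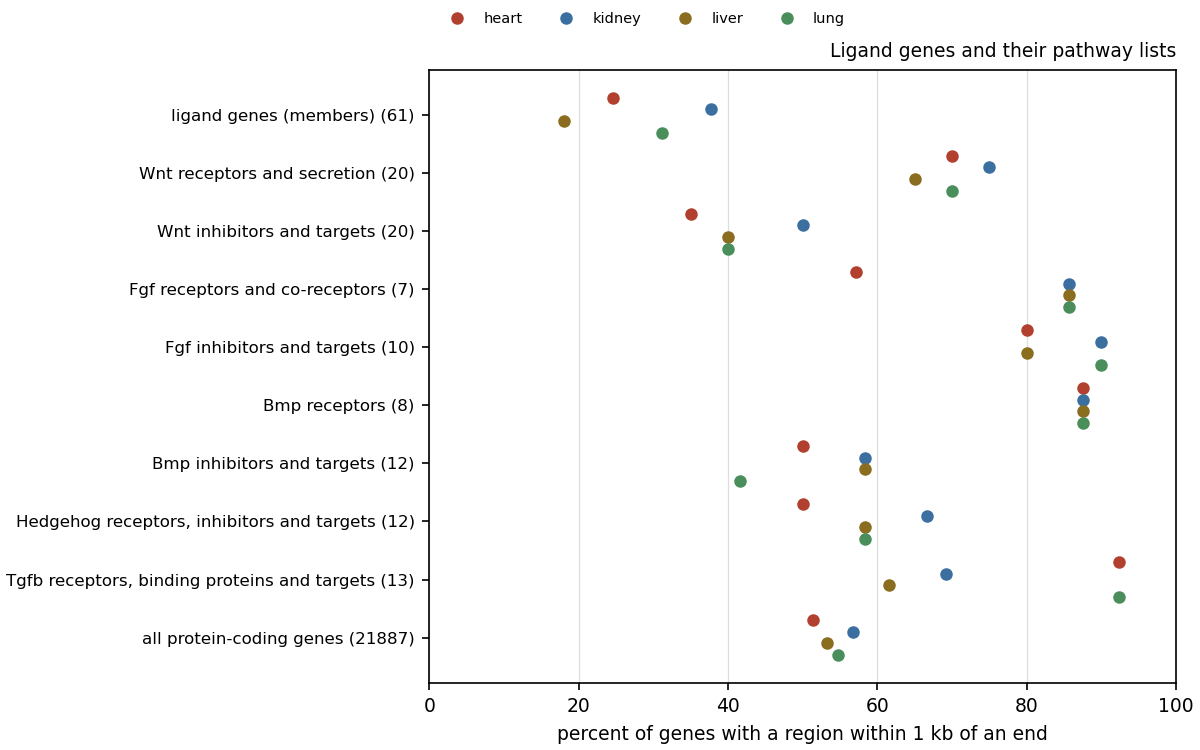
Points give the percent of genes with a called region within 1 kb of a gene end (horizontal axis) for the ligand genes, 8 lists of their pathway genes and all protein-coding genes (rows, number of genes in brackets), with a colour per organ list. The ligand genes lie at 18.0% to 37.7%, and the pathway lists range from 35.0% (Wnt inhibitors and targets in heart) to 92.3% (Tgfb genes in heart and lung).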

How the data were processed

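Pol II regions were analysed as the authors deposited them, 1 list per organ (heart, kidney, liver, lung). Reads were aligned with Bowtie2 2.2.8 to mm10 and regions called with HOMER 4.8, per the submitters' processing notes. Per the file headers, findPeaks ran in histone style, joining 500 bp windows at a Poisson p threshold of 0.001, with no control library named in the command. The signal deposited for each region is a tag count, which the authors scaled to a library of 10000000 tags. A score from the caller, also deposited, was used only to take the top 50% of a list, and the deposited ratio, a clonal fold change, was checked and not reported. Region lengths are the files' own. The handling of tags with several genomic matches is not given here, so near-identical gene copies are uncertain.

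Gene spans came from a RefSeq table of GRCm38.p6, the assembly behind mm10, and starts and promoters from a RefSeq promoter table of the same build. The 17 ligand genes without an entry there were Fgf1, Fgf8, Fgf15, Fgf16, Fgf17, Fgf20, Wnt5a, Wnt7b, Wnt8a, Wnt10a, Rspo2, Rspo3, Bmp2, Bmp3, Bmp7, Shh and Tgfb3. A start there can lie inside the annotated span. Covered percent, regions near an end (1 kb, at least 1 bp) and tags per kb were computed with Python 3.11.15, numpy 2.4.6, pandas 2.3.3 and scipy 1.17.1, and figures drawn with matplotlib 3.10.9. Overlap code was tested on simulated data, where 100% of 2000 queries equalled per-base counts. No test was run, since each organ had 1 list. A region between genes or across several is shared out by length, so a level near a busy neighbour includes that neighbour.

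The members and lists were chosen with earlier results of these data known. Named with values were ligand genes covered at 50% or more in any list, the 5 with the highest tags per kb in each list, those with a region near an end in all 4 lists or with no region at all, and the 3 genes of each pathway list with the highest summed level. Kl and the other ligand genes given with values were chosen after their values were seen. Alternatives changed the threshold (25% and 75%), the window (500 bp and 2500 bp), the ends and the regions used.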

Additional observations from a re-analysis of the deposited data

How the results depend on the processing

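Each count of covered ligand genes stayed within 1.5 times its reported value with regions of at least 10 tags per 10000000. Counting only the span outside other protein-coding genes, an alternative chosen after seeing the data, gave 3, 5, 3 and 4 in heart, kidney, liver and lung, as Fgf1 dropped out. A threshold of 75% gave 2 in heart, 2 in liver and 0 in lung, and 25% gave 10 in kidney. With the 50% of each list that scored highest, the counts were 2 in heart, 2 in liver and 0 in lung. With regions at least 50% inside the gene and its 1 kb flanks, lung had 3. Fewer regions enter under these last 2 choices by construction. Likewise, a threshold of 75% can only lower a count and one of 25% can only raise it. Requiring a region at both ends gave 6, 8, 5 and 7 ligand genes, and a window of 500 bp gave 7 in liver. Both choices can only lower a count. The window of 2500 bp and the other region choices moved no count near an end by over 1.5 times. Nor did the start alone, but it was counted over 44 genes and not 61, so those counts are not like for like. Ligand genes covered in no list numbered 45 to 55 under the alternatives, and the median level was 0 in each list throughout. Shares of all genes are given for the main settings only, so whether the alternatives moved ligand genes more than other genes was not tested. Depth limits what the absence of a region can show, and it was lowest in heart (9880184 tags) and highest in liver (20058183 tags). No paired analysis was possible because each organ had 1 list.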

Other observations

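Bmp2k, the kinase gene whose symbol the letters of the rule matched, was covered at 1.22% in the heart, 21.3% in the kidney, 13.7% in the liver and 11.4% in the lung, with a region near its start in all 4 lists, at 0.23, 3.97, 2.52 and 2.01 tags per kb.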
